A study of Mus musculus with 6 samples.

Results

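The 9 transcription factor genes Pax6, Emx1, Emx2, Lhx2, Nr2f1, Nr2f2, Nr2e1, Sp8 and Dmrta2, which give the embryonic cortex its dorsal identity and divide it into areas, were followed in cells made to express Insm1. They were taken by symbol from a count table of 22001 mouse genes, and all 9 were found there and passed the filter on low counts, with 285 counts for the lowest value (Nr2f2 in Insm1 library 2) and 30304 for the highest (Lhx2, also in Insm1 library 2). Each library came from mCherry-positive neocortical cells sorted at E14.5, 24 h after plasmids were introduced at E13.5 by in utero electroporation, a method in which current drives DNA from the ventricle into the progenitors lining it. In the Insm1 group, with 3 libraries, the plasmid encoded Insm1 and mCherry. In the control group, also with 3 libraries, it encoded mCherry alone. Reads of plasmid and endogenous Insm1 are counted together. All cells of both groups therefore carried mCherry, and nothing in the labels gives a strain, a promoter, or whether the numbered libraries came from separate litters, so each p-value reflects library-to-library spread that may be only technical.

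Cortical progenitors acquire their identity from a small set of factors present in gradients across the ventricular zone. Lhx2 acts as a selector of cortical over hem fate, and Emx2, Pax6, Sp8 and the orphan receptor Nr2f1 (COUP-TFI) shift the borders between cortical areas when they are lost. Pax6 is highest rostrolaterally, Sp8 rostromedially, Emx2 and Dmrta2 (Dmrt5) caudomedially and Nr2f1 caudolaterally. Emx1 marks the dorsal lineage in progenitors and in the excitatory neurons they produce, Nr2e1 (Tlx) is a repressor that keeps progenitors dividing, and Nr2f2 (COUP-TFII) marks caudal territories and interneurons of the caudal ganglionic eminence.

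RefSeq holds 14 promoter windows for the 9 genes (GRCm38.p6), and each was searched over the 250 bases before its RefSeq transcription start. These starts can differ from the GENCODE gene positions given further below. Among the windows shown, that of Emx1 lies inside its GENCODE gene and that of Nr2e1 overlaps its gene in part. The motifs, read on both strands, were CAGGGG (the centre of the published Insm1 matrix), TAATTA (a homeodomain core bound by Lhx2), AGGTCA (the core of Nr2f sites), AAGTCA (the core of Nr2e1 sites) and GGGCGG (the GC box of the Sp family), and matches of CAGGGG and GGGCGG can share bases with each other. Sequences are shown for the 3 genes that were called and for Nr2f2, which had the largest fold change, with every motif match in capitals. All read 5′ to 3′ in the direction of transcription. The Emx1 window lies at chr6:85187681-85187930 on the plus strand and the Lhx2 window at chr2:38339031-38339280 on the plus strand. The Nr2e1 window lies at chr10:42583591-42583840 on the minus strand and the Nr2f2 window at chr7:70366747-70366996 on the minus strand.
Emx1: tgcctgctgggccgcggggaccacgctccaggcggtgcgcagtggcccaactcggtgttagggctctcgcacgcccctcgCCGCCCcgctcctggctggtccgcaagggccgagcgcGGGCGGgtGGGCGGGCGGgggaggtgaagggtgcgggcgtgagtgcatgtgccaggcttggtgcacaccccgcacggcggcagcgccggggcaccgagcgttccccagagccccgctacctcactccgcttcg
Lhx2: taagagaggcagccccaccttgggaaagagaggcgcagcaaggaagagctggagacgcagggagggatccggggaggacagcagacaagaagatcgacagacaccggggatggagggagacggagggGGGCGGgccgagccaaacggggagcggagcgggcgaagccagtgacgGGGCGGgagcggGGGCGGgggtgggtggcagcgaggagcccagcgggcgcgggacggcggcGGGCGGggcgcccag
Nr2e1: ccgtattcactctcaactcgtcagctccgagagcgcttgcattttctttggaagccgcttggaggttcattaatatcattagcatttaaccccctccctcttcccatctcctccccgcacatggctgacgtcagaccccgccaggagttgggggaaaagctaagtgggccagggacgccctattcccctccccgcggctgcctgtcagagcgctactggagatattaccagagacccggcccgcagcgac
Nr2f2: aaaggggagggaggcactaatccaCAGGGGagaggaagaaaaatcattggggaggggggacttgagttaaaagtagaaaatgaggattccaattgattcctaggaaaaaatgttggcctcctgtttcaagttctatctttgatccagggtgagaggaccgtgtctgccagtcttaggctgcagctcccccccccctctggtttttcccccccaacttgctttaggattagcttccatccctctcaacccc
The Emx1 window and the Lhx2 window shown each held 4 GC boxes, the last 2 of Emx1 sharing bases, and 4 or more were found in 4.09% of all 32851 windows. The other Lhx2 window, at chr2:38351058-38351307, and the Nr2e1 window held none of the 5 motifs. CAGGGG occurred once in the Nr2f2 window and once in 1 window each of Pax6, Nr2f1 and Dmrta2, so in 4 of the 14 windows, against 6961 of all 32851 (21.2%). GGGCGG was found in 32.7% of all windows, AGGTCA in 4607 of the 32851, AAGTCA in 13.1% and TAATTA in 4.84%. Among the 9 genes AGGTCA and TAATTA each occurred once, in different Sp8 windows, and AAGTCA not at all. These matches describe letters only.

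Library totals lay between 30017645 and 31645135 counts, and 13560 genes had enough counts to be tested. Insm1 itself had 1570, 2173 and 1436 CPM (counts scaled to library size, with TMM factors) in Insm1 libraries 1, 2 and 3, against 222, 331 and 371 CPM in controls 1, 2 and 3, so its groups did not overlap. Control 2 stood apart from the other controls: its counts differed from those of controls 1 and 3 with a chi-square per degree of freedom of 32.5 and 31.4, where controls 1 and 3 gave 12.9 and pairs of Insm1 libraries 17.7 to 23.6. It had the highest summed level of 6 microglial markers, 59.3 CPM, where the others had 1.101 to 30.9 CPM. The 6 endothelial markers summed to at most 2.07 CPM in any library, and the 6 erythroid markers, haemoglobins and Alas2, to 3497 to 4891 CPM in the Insm1 libraries and to 715, 5258 and 307 CPM in controls 1, 2 and 3. The labelled tissue was borne out by its markers, with Neurod6, a bHLH factor of cortical excitatory neurons, at 1712 ± 151 CPM in Insm1 cells and 1381 ± 18.1 CPM in control cells (SD, n = 3 each) and Ttr, a choroid plexus marker, at 0 to 0.42 CPM. Meningeal markers summed to at most 3.89 CPM and choroid plexus markers to at most 2.20 CPM, and none of the 16 markers of these 5 other cell types that could be tested was called (edgeR; 0 at an unadjusted p below 0.05, by DESeq2 or by limma). No endothelial, 1 of 5 choroid plexus and 3 of 6 meningeal markers had enough counts to be tested, and Alas2 was called higher without control 2 (adjusted p = 0.022 in edgeR's test).

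**Figure D1:**
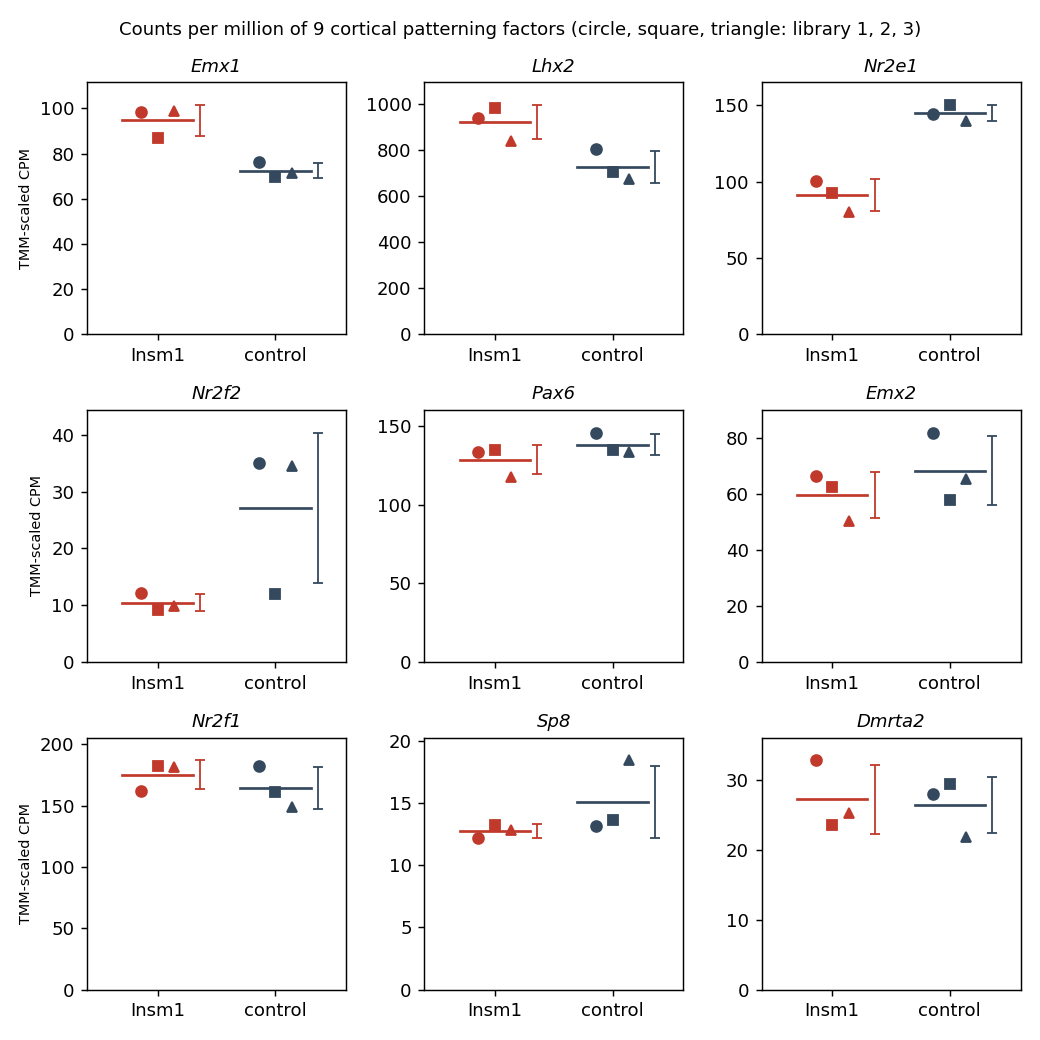
TMM-scaled CPM of each of the 9 genes in every library, with Insm1 libraries on the left of each panel and control libraries on the right; horizontal lines are means, the bars beside them are SDs over 3 libraries, and circles, squares and triangles are libraries 1, 2 and 3. The groups are separate for Emx1, Lhx2 and Nr2e1, and in Nr2f2 control 2, at 11.9 CPM, sits among the Insm1 libraries.

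Of the 9 factors 3 were called. Nr2e1 fell 1.59-fold, Emx1 rose 1.31-fold and Lhx2 rose 1.27-fold, and the other 6 genes did not pass the test (edgeR's quasi-likelihood test, Benjamini-Hochberg adjusted over 13560 genes, threshold 0.05). Only Nr2e1 kept its call without each library in turn. Emx1 and Lhx2 were each called in 1 of the 6 fits that left out a library. Over all tested genes 3.35% were called, 1.23% higher and 2.12% lower. The members were chosen with these results known, so their larger share is a description. The groups did not overlap in 3 of the 9 genes, and in 22.2% of all tested genes. The median log2 fold change of the 9 was -0.10, beside -0.0087 over all tested genes, and the single values ran from -1.38 for Nr2f2 to 0.39 for Emx1.

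Nr2e1 encodes the orphan receptor Tlx, a repressor of differentiation genes in dividing progenitors. It had 101, 92.8 and 80.3 CPM in Insm1 libraries 1, 2 and 3, against 145, 150 and 140 CPM in controls 1, 2 and 3. Every Insm1 library lay well below every control, and the controls spread by a coefficient of variation of only 3.46%. The means were 91.3 ± 10.3 CPM with Insm1 and 145 ± 5.01 CPM in controls (SD, n = 3 each), a log2 fold change of -0.67 (SE 0.088; adjusted p = 0.00559 in edgeR's test). The call held without each of the 6 libraries in turn, with log2 fold changes between -0.74 and -0.58 and adjusted p between 0.0077 and 0.0325 in edgeR's test. The gene (ENSMUSG00000019803) lies on chromosome 10, 42561963 to 42583632, minus strand, in GENCODE M21 on GRCm38, and no annotated gene there overlaps it.

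The fall of Nr2e1 ran beside that of radial glia markers. Of 11 radial glia markers tested 7 fell, none rose and 4 did not pass, with a median log2 fold change of -0.65 and single values from -1.19 to -0.11. Their summed level was 2593 to 3239 CPM in the Insm1 libraries and 3906 to 4450 CPM in the controls, without overlap, and their part in the Nr2e1 result was not tested. Among them Ptprz1, a receptor phosphatase, fell 1.96-fold, and Fabp7, the brain fatty acid-binding protein, 1.80-fold. Slc1a3, a glutamate transporter, fell 2.10-fold and Id4, an inhibitor of bHLH factors, 2.29-fold. All 4 were called without each library in turn. In sorted bulk RNA, fewer radial glia and less RNA per radial glial cell cannot be told apart.

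Pax6, the paired-box factor that drives neurogenesis in the same radial glia, did not pass. It had 133, 135 and 118 CPM in Insm1 libraries 1, 2 and 3, against 146, 135 and 133 CPM in controls 1, 2 and 3. The groups overlapped, since Insm1 library 2 stood above control 3. The log2 fold change was -0.10 with a 95% interval of -0.27 to 0.065 (adjusted p = 0.567 in edgeR's test), so a fall to below 0.829 of the control level lies outside the interval. That interval shares no value with the one of Nr2e1, which was -0.86 to -0.47.

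Emx1, a homeodomain factor of the dorsal lineage, had 98.4, 86.9 and 98.6 CPM in Insm1 libraries 1, 2 and 3, against 76.1, 69.7 and 71.2 CPM in controls 1, 2 and 3. The lowest Insm1 library was above the highest control. The means were 94.6 ± 6.72 CPM with Insm1 and 72.3 ± 3.31 CPM in controls (SD, n = 3 each), a log2 fold change of 0.39 (SE 0.082; adjusted p = 0.032 in edgeR's test). The direction held without each library, at 0.36 to 0.45, but the call held only without Insm1 library 2 (adjusted p = 0.0462 in edgeR's test). It was lost without Insm1 library 1 (0.0826) or 3 (0.123) and without control 1 (0.0677), 2 (0.064) or 3 (0.142), and by limma on log2(TPM + 1) or log2(TPM + 0.1) (0.116 in each). Emx1 (ENSMUSG00000033726) lies on chromosome 6, 85187438 to 85204462, plus strand.

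Its relative Emx2, which is graded from high caudomedial to low rostrolateral levels, had 66.2, 62.4 and 50.4 CPM in Insm1 libraries 1, 2 and 3, against 81.7, 57.6 and 65.2 CPM in controls 1, 2 and 3. The groups overlapped, with control 2 below Insm1 libraries 1 and 2. The log2 fold change was -0.19 with a 95% interval of -0.51 to 0.12 (adjusted p = 0.566 in edgeR's test). Emx2 shares 264 exonic bases, 8.79% of its exonic length, with the antisense gene Emx2os, which is not among the genes used here, and the labelled protocol names no step that marks strand, so reads in the shared bases cannot be told apart. Within each library Emx1 minus Emx2 on the log2 CPM scale was 0.57, 0.48 and 0.97 in Insm1 libraries 1, 2 and 3, and -0.10, 0.27 and 0.13 in controls 1, 2 and 3. These within-library differences did not overlap between the groups, which is not a separate test because Emx1 was itself called in the same libraries.

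Lhx2, the LIM-homeodomain selector of cortical fate, was the most abundant of the 9 in every library. It had 938, 982 and 840 CPM in Insm1 libraries 1, 2 and 3, against 804, 704 and 672 CPM in controls 1, 2 and 3. The groups were separate, although Insm1 library 3 and control 1 lay close together. The means were 920 ± 73.0 CPM with Insm1 and 727 ± 68.6 CPM in controls (SD, n = 3 each), a log2 fold change of 0.34 (SE 0.080; adjusted p = 0.0498 in edgeR's test), at the edge of the threshold. Without control 1 the call held (adjusted p = 0.0359 in edgeR's test). It was lost without Insm1 library 1 (0.112), 2 (0.158) or 3 (0.0534), without control 2 (0.0867) or 3 (0.203), and with RLE or upper-quartile scaling (0.0501 in each), in the fit that is not robust (0.0589) and by limma on log2(TPM + 1) (0.181) or log2(TPM + 0.1) (0.175), while the log2 fold change stayed between 0.29 and 0.43 over the fits that left out a library. Lhx2 (ENSMUSG00000000247) lies on chromosome 2, 38339281 to 38369733, plus strand, and shares no exonic base with another annotated gene.

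The rises of Emx1 and Lhx2 ran beside a higher level of projection neuron markers, which summed to 7084 to 7824 CPM in the Insm1 libraries and to 6210 to 6576 CPM in the controls. Of those 8 markers 2 rose, none fell and 6 did not pass, with a median log2 fold change of 0.25. Stmn2, a tubulin-binding protein of growing neurites, went the other way without passing, at 126 ± 22.0 CPM with Insm1 and 192 ± 36.6 CPM in controls, without overlap (SD, n = 3 each; adjusted p = 0.0908 in edgeR's test, and 0.0113 without control 2). Without control 2 the list gave 3 higher and 1 lower, the lower one being Stmn2. Both that rose are neuronal: Tubb3, the neuronal tubulin, rose 1.31-fold and Neurod6 1.24-fold. Of 8 basal progenitor markers 2 rose, none fell and 6 did not pass, with a median log2 fold change of -0.038. Those 6 ran from -0.41 for Gadd45g to -0.018 for Neurog1, with Eomes at -0.046. Sstr2, a somatostatin receptor, rose by a log2 fold change of 0.59, called in 3 of the 6 fits that left out a library. Mfng, a Notch modifier, rose by 0.34, called only without control 2. Tubb3 held its call without each library and Neurod6 only without Insm1 library 1 or control 2. Whether these levels had a part in the Emx1 and Lhx2 results was not tested.

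**Figure D2:**
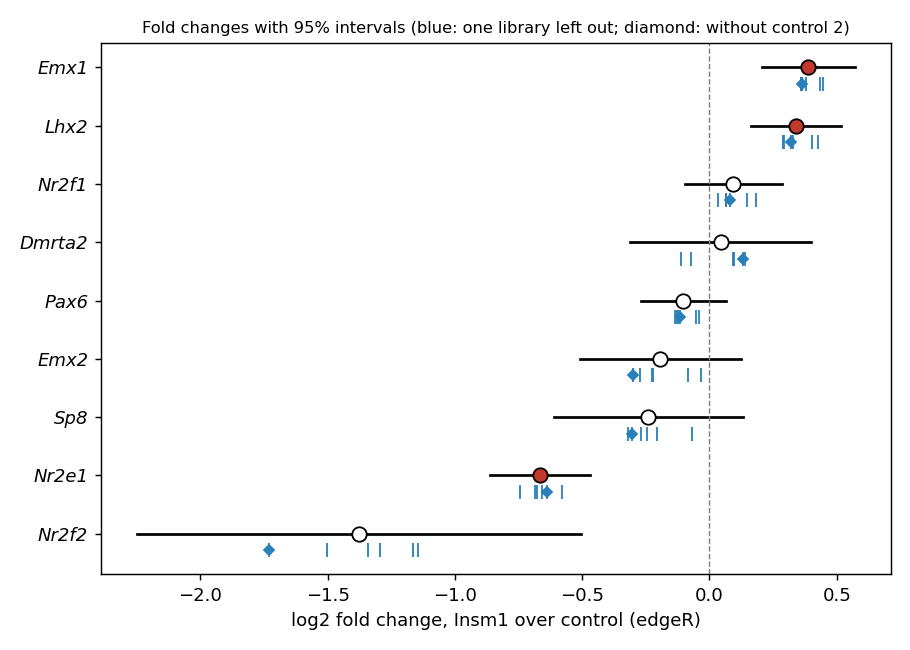
Log2 fold change of the 9 genes, Insm1 over control, with 95% intervals from edgeR; filled circles passed the adjusted threshold of 0.05, blue ticks are the values with 1 library left out and blue diamonds those without control 2. Nr2e1 stays near -0.67 in every fit, whereas Nr2f2 goes to -1.73 without control 2.

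Nr2f2, the COUP-TFII receptor, had the largest fold change of the 9 but did not pass. It had 12.2, 9.24 and 9.92 CPM in Insm1 libraries 1, 2 and 3, against 34.9, 11.9 and 34.6 CPM in controls 1, 2 and 3. Controls 1 and 3 were about alike and high, while control 2 fell below Insm1 library 1, so the groups overlapped. The means were 10.4 ± 1.54 CPM with Insm1 and 27.1 ± 13.2 CPM in controls (SD, n = 3 each), and the control coefficient of variation, 48.5%, was the widest of the 9 genes. Its log2 fold change came to -1.38 (SE 0.38; unadjusted p = 0.00675 and adjusted p = 0.104 in edgeR's test). Without control 2 it was -1.73 with an adjusted p of 0.000661, and without any of the other 5 libraries it was -1.50 to -1.15 with adjusted p between 0.169 and 0.328 in edgeR's test. Nr2f2 (ENSMUSG00000030551) lies on chromosome 7, 70351944 to 70366735, minus strand, and shares 643 exonic bases, 7.46% of its exonic length, with B130024G19Rik on the other strand, so the 2 genes' reads cannot be told apart there.

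Most markers of Cajal-Retzius cells were likewise high in controls 1 and 3 and low in control 2. These cells are early neurons of the cortical surface that arise partly from the hem. The 10 marker genes summed to 131, 124 and 94.6 CPM in Insm1 libraries 1, 2 and 3, against 224, 78.6 and 196 CPM in controls 1, 2 and 3. None of the 9 tested passed edgeR's test (3 at an unadjusted p below 0.05, 2 called by DESeq2 and 0 by limma on log2(TPM + 1)), and 5 passed, all lower, without control 2. Trp73, among these markers, was at 2.71, 2.43 and 1.75 CPM in Insm1 libraries 1, 2 and 3, against 15.4, 0.065 and 14.46 CPM in controls 1, 2 and 3. Control 2 was the lowest control in all 9 tested, beside 37.3% of all tested genes. In 8 of the 9, controls 1 and 3 lay above every Insm1 library and control 2 did not, which held for 7.60% of all tested genes and for Nr2f2 alone among the members. The exception was Nhlh2, the most abundant of these markers in every Insm1 library. It had 70.6, 76.8 and 53.7 CPM in Insm1 libraries 1, 2 and 3, against 72.2, 38.1 and 51.1 CPM in controls 1, 2 and 3. Its log2 fold change was 0.32 (adjusted p = 0.565 in edgeR's test). Reln, the secreted protein of these cells, was at 34.6 ± 7.57 CPM with Insm1 and 76.4 ± 40.7 CPM in controls (SD, n = 3 each). The part of these cells in the Nr2f2 values was not tested.

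Genes outside the member list that resembled Nr2f2 in their libraries were picked out after their values were seen. Zfpm2 (Fog2), a zinc-finger cofactor known to bind Nr2f2, had 7.79, 12.6 and 9.12 CPM in Insm1 libraries 1, 2 and 3, against 26.8, 12.5 and 21.5 CPM in controls 1, 2 and 3 (adjusted p = 0.0800 in edgeR's test). Lhx9, the closest relative of Lhx2, had 14.4, 15.2 and 10.6 CPM in Insm1 libraries 1, 2 and 3, against 27.0, 9.09 and 25.2 CPM in controls 1, 2 and 3 (adjusted p = 0.484 in edgeR's test). Wnt5a, a ligand of the hem, had 1.94, 3.66 and 0.711 CPM in Insm1 libraries 1, 2 and 3, against 16.3, 3.38 and 12.3 CPM in controls 1, 2 and 3 (adjusted p = 0.145 in edgeR's test). In each of the 3, controls 1 and 3 were high and control 2 was not. Without control 2 all 3 were called lower in edgeR's test, with adjusted p of 0.0102 for Zfpm2, 0.015 for Lhx9 and 0.0134 for Wnt5a. Because the genes were picked for this pattern, those calls describe it and are not a separate test. Prox1, which like Nr2f2 marks caudal interneurons, had 5.95, 9.72 and 3.69 CPM in Insm1 libraries 1, 2 and 3. It had 18.1, 3.44 and 11.8 CPM in controls 1, 2 and 3. It was not called with all libraries or without control 2 (adjusted p = 0.591 and 0.0949 in edgeR's test). The interneuron enzymes Gad1 and Gad2 stayed at or below 3.85 CPM in every library.

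**Figure D3:**
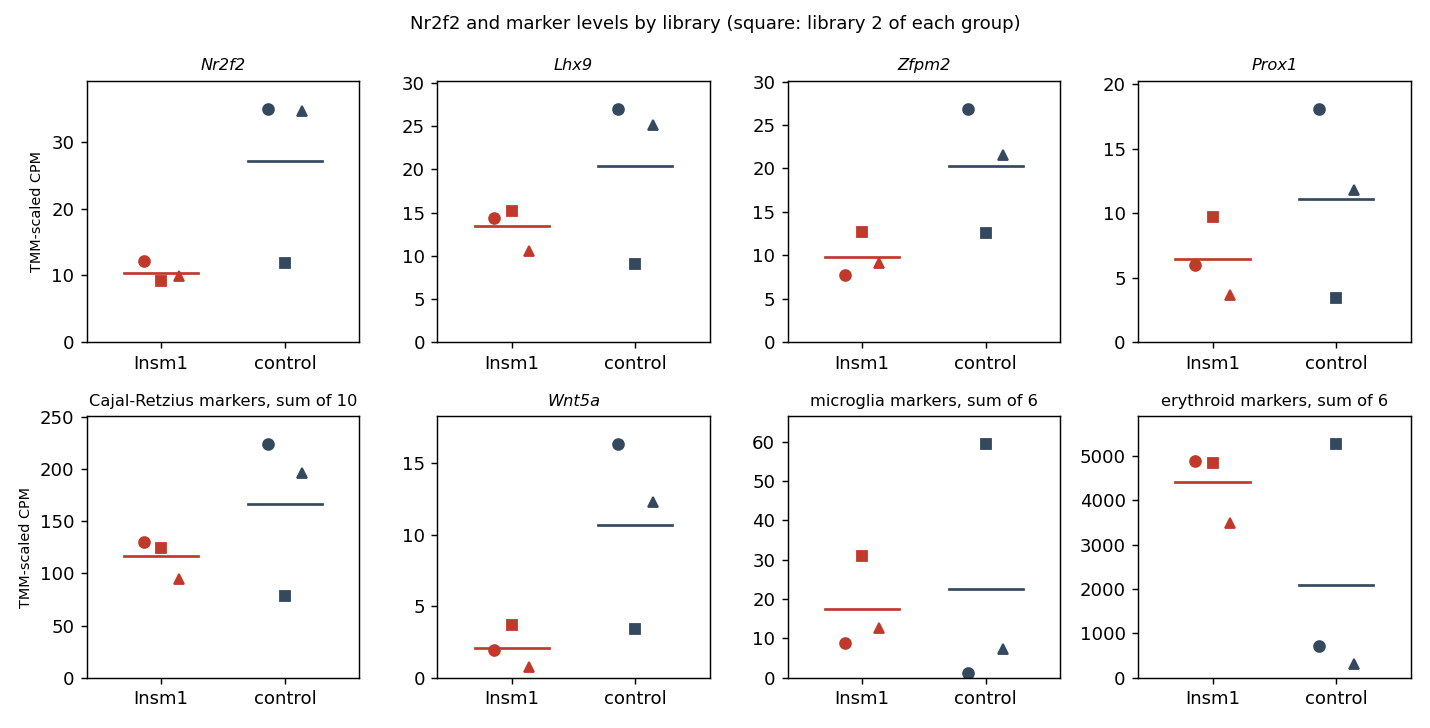
TMM-scaled CPM by library for Nr2f2, Lhx9, Zfpm2, Prox1 and Wnt5a and for the summed Cajal-Retzius, microglial and erythroid markers, with Insm1 libraries on the left of each panel, control libraries on the right, lines for means and squares for library 2 of each group. Control 2 is low where controls 1 and 3 are high in the first 6 panels, and is the highest library for microglial (59.3 CPM) and erythroid (5258 CPM) markers.

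Nr2f1, the COUP-TFI receptor that sets caudal against frontal areas, did not pass, and its libraries were not ordered like those of its relative. It had 162, 182 and 182 CPM in Insm1 libraries 1, 2 and 3, against 182, 161 and 149 CPM in controls 1, 2 and 3. The groups overlapped over most of their range. The log2 fold change was 0.093 with a 95% interval of -0.098 to 0.28 (adjusted p = 0.667 in edgeR's test), an interval that shares no value with that of Nr2f2, -2.25 to -0.50. Within a library Nr2f1 minus Nr2f2 on the log2 CPM scale was 3.72, 4.29 and 4.19 in Insm1 libraries 1, 2 and 3, and 2.38, 3.75 and 2.11 in controls 1, 2 and 3, so the groups overlapped through control 2. Nr2f1 shares 123 exonic bases, 2.42% of its exonic length, with the antisense gene A830082K12Rik.

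Sp8, the rostromedial zinc-finger factor that sustains Fgf8 signalling, had 12.2, 13.3 and 12.8 CPM in Insm1 libraries 1, 2 and 3, against 13.1, 13.7 and 18.4 CPM in controls 1, 2 and 3. Control 3 was the high library, and controls 1 and 2 were close to the Insm1 group. The log2 fold change was -0.24 with a 95% interval of -0.61 to 0.13 (adjusted p = 0.540 in edgeR's test), and -0.067 without control 3. Dmrta2, the caudomedial DM-domain factor, had 32.9, 23.6 and 25.4 CPM in Insm1 libraries 1, 2 and 3, against 28.1, 29.5 and 21.9 CPM in controls 1, 2 and 3. Its groups overlapped over most of their range, and the log2 fold change of 0.044 had a 95% interval of -0.31 to 0.40 (adjusted p = 0.937 in edgeR's test). Its sign turned without Insm1 library 1 (-0.11) or control 3 (-0.071). Between them, the rostral factors Pax6 and Sp8 and the caudal factors Emx2, Nr2f1 and Dmrta2 showed no call in either direction. Nr2f2, which also marks caudal territories, was not called either, but its 95% interval was -2.25 to -0.50. It was called lower without control 2 (adjusted p = 0.000661 in edgeR's test).

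**Figure D4:**
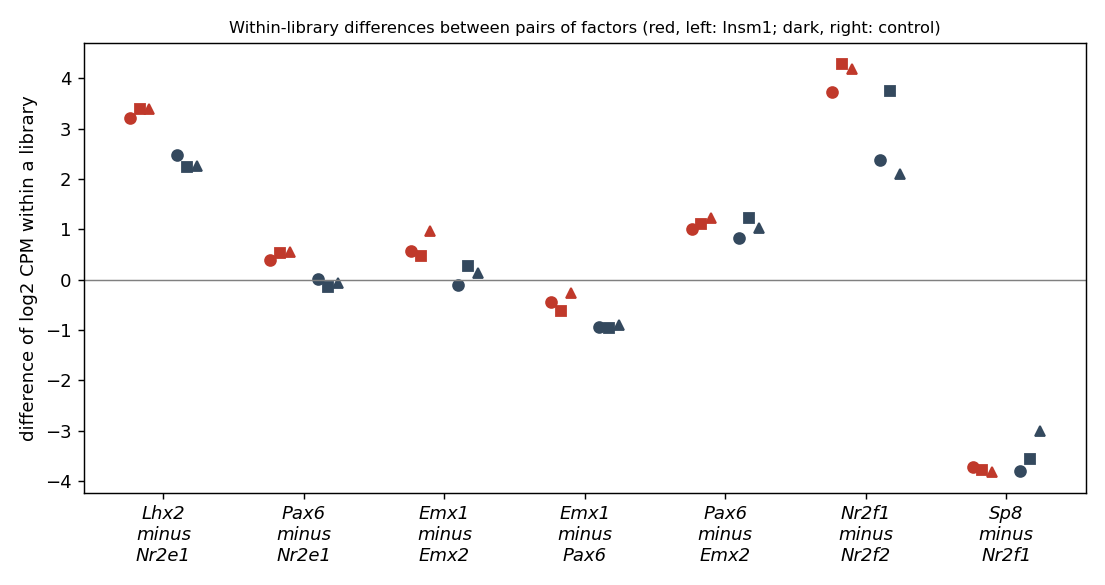
Difference of log2 CPM between pairs of factors within each library, with Insm1 libraries in red on the left and controls in dark on the right of each pair; circles, squares and triangles are libraries 1, 2 and 3. Lhx2 minus Nr2e1 was 3.22 to 3.40 in Insm1 libraries and 2.23 to 2.47 in controls, whereas Pax6 minus Emx2 overlapped at 1.01 to 1.22 and 0.83 to 1.22.

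Comparing factors within a library removes the scaling between libraries. Lhx2 minus Nr2e1 on the log2 CPM scale averaged 3.34 ± 0.10 in Insm1 libraries and 2.32 ± 0.13 in controls (SD, n = 3 each). Pax6 minus Nr2e1 was 0.40, 0.54 and 0.55 in Insm1 libraries 1, 2 and 3, and 0.01, -0.15 and -0.07 in controls 1, 2 and 3. Emx1 minus Pax6 was -0.44, -0.63 and -0.26 in Insm1 libraries 1, 2 and 3, and -0.94, -0.95 and -0.90 in controls 1, 2 and 3. In these 3 pairs the groups did not overlap. Each pair holds a gene already called in these libraries, so the separation largely restates those calls and is not a separate test. Pax6 minus Emx2, which sets the rostrolateral against the caudomedial factor, averaged 1.11 ± 0.11 in Insm1 libraries and 1.03 ± 0.20 in controls (SD, n = 3 each), with overlap. Sp8 minus Nr2f1 averaged -3.77 ± 0.05 in Insm1 libraries and -3.45 ± 0.40 in controls (SD, n = 3 each), also with overlap.

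Levels were compared between genes as TPM, computed here from the counts and the exonic length in GENCODE M21. Lhx2 led in both groups, at 737 ± 56.6 TPM with Insm1 and 604 ± 53.8 TPM in controls (SD, n = 3 each). With Insm1 the order was then Emx1 (152 ± 11.3 TPM), Nr2f1 (121 ± 7.81 TPM), Nr2e1 (86.5 ± 9.78 TPM), Emx2 (69.9 ± 9.64 TPM), Pax6 (38.7 ± 2.75 TPM), Dmrta2 (32.9 TPM, with libraries from 28.3 to 39.7), Sp8 (9.85 ± 0.389 TPM) and Nr2f2 (4.26 ± 0.64 TPM; SD, n = 3 each). In controls it was Nr2e1 (142 ± 2.61 TPM), Emx1 (121 ± 5.96 TPM), Nr2f1 (118 ± 11.2 TPM), Emx2 (82.9 ± 15.1 TPM), Pax6 (43.1 ± 1.99 TPM), Dmrta2 (33.0 ± 4.53 TPM), Sp8 (12.1 ± 2.54 TPM) and Nr2f2 (11.5 ± 5.68 TPM; SD, n = 3 each). Neighbours whose libraries overlapped were Nr2e1 with Emx2 and Pax6 with Dmrta2 in the Insm1 group, and Emx1 with Nr2f1 and Sp8 with Nr2f2 in the control group. Nr2e1 thus stood directly after Lhx2 in the controls and after Emx1 and Nr2f1 with Insm1.

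The deposited TPM gives another order, because its length is the genomic span of each gene with introns: among 8158 genes with at least 500 counts in Insm1 library 1 it matched the span within 2% for 96.4% and the exonic length for 1.45%. Emx1, whose span of 17025 bases is 7.80 times its exonic 2184 bases, is at 47.3 ± 3.26 TPM with Insm1 and 37.9 ± 1.90 TPM in controls in the authors' deposited table (SD, n = 3 each), below Emx2 at 72.7 ± 9.80 TPM with Insm1 and 87.0 ± 15.8 TPM in controls. Per exonic length Emx1 is above Emx2 in both groups. The exonic length of Pax6, 11694 bases, adds up all annotated exons, which lowers its value per length if some of them are rarely used.

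**Figure D5:**
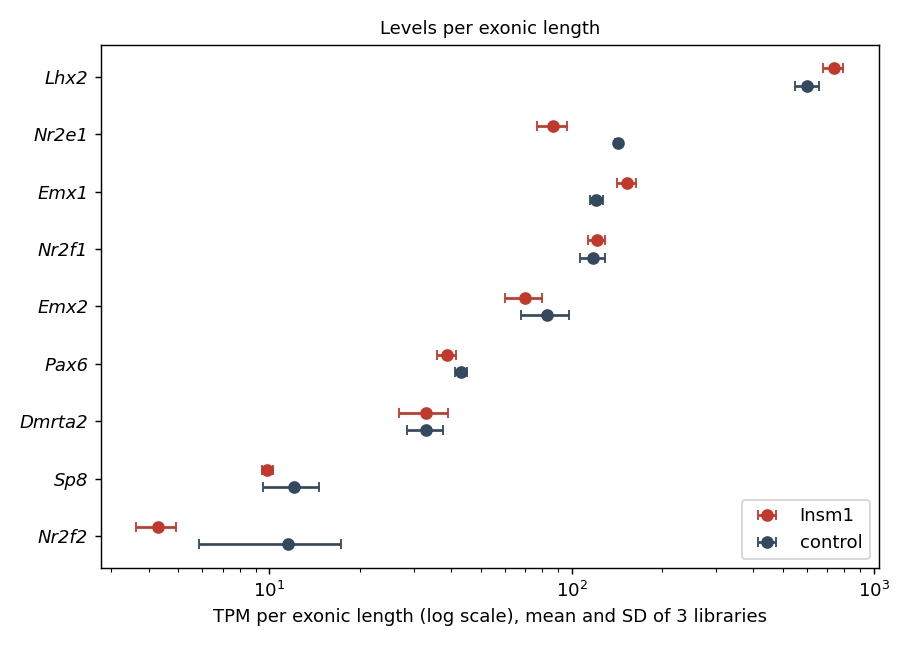
TPM per exonic length for the 9 genes on a log axis, as mean and SD over 3 libraries, with Insm1 above control in each row. Lhx2 is highest at 737 and 604 TPM and Nr2f2 lowest at 4.26 and 11.5 TPM, and the SD bars do not meet for Lhx2, Nr2e1, Emx1 and Nr2f2.

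Other regulators of the dorsal telencephalon gave no call. None of 14 tested passed edgeR's test (6 at an unadjusted p below 0.05, 4 called by DESeq2 and 0 by limma on log2(TPM + 1)), with a median log2 fold change of -0.17. Their summed level was 2446, 2587 and 2449 CPM in Insm1 libraries 1, 2 and 3, against 2492, 2514 and 2384 CPM in controls 1, 2 and 3, so the groups overlapped.

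Among cofactors of the members 2 of 17 tested rose, 1 fell and 14 did not pass, with a median log2 fold change of 0.063. Ldb2, a LIM-domain-binding cofactor of the class Lhx2 works with, had 2.59, 1.43 and 3.65 CPM in Insm1 libraries 1, 2 and 3, against 15.1, 8.41 and 13.97 CPM in controls 1, 2 and 3, a log2 fold change of -2.29 (adjusted p = 0.0100 in edgeR's test, and 0.0546 without control 3). Its more abundant relative Ldb1 was at 131 ± 8.65 CPM with Insm1 and 109 ± 9.24 CPM in controls (SD, n = 3 each; adjusted p = 0.119 in edgeR's test). The groups thus did not overlap in Ldb2, and Ldb1 outnumbered it in every library. Bcl11a and Bcl11b, zinc-finger factors that bind Nr2f receptors, rose 1.18-fold and 1.19-fold. Bcl11a was called in none of the 6 fits that left out a library and Bcl11b only without control 2 (adjusted p between 0.0598 and 0.127 for Bcl11a and between 0.0258 and 0.108 for Bcl11b in edgeR's test). Atn1 and Rere, atrophins that act as corepressors with Nr2e1, were at 77.6 ± 4.20 and 143 ± 4.41 CPM with Insm1 and at 63.8 ± 1.18 and 115 ± 9.37 CPM in controls (SD, n = 3 each; adjusted p = 0.0904 and 0.0529 in edgeR's test).

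Genes that mark cortical areas or gradients, several of them under the members' influence, were lower in 4 cases. Of 14 tested 4 fell, none rose and 10 did not pass, with a median log2 fold change of -0.16, and without control 2 the list gave 5 lower and 1 higher. Mef2c, a factor of maturing neurons, was at 14.9 ± 1.502 CPM with Insm1 and 55.3 ± 14.1 CPM in controls (SD, n = 3 each), and held its call without each library in turn. Lmo3, a LIM-only protein, fell 1.62-fold, Fgfr3, a receptor graded along the cortex, 1.44-fold, and Rorb, a nuclear receptor of the sensory areas, 1.33-fold. Rorb and Fgfr3 kept their call only without control 2, and Lmo3 without control 2 or Insm1 library 3. Cdh8, a cadherin of frontal and motor areas, was at 125 ± 23.6 CPM with Insm1 and 83.4 ± 15.1 CPM in controls (SD, n = 3 each; adjusted p = 0.0864 in edgeR's test), and it is the gene called higher without control 2 (adjusted p = 0.0254) and also without Insm1 library 1 (0.0432).

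Among the signals of the patterning centres Wnt7b was by far the most abundant, at 395 to 481 CPM, and the highest value of any other was 32.0 CPM, for Rspo3 in control 1. Of 23 fixed genes 16 could be tested, and of these 3 fell, none rose and 13 did not pass, with 5 lower without control 2. Rspo3, a Wnt co-activator made by the hem, had 5.59, 5.45 and 7.79 CPM in Insm1 libraries 1, 2 and 3, against 32.0, 11.6 and 30.6 CPM in controls 1, 2 and 3. Here control 2 lay between the other controls and the Insm1 libraries, and the call was kept only without it (adjusted p = 0.000416, and 0.0656 to 0.103 without any other library, in edgeR's test). Nrg3, an ErbB ligand of the antihem, fell 3.16-fold and lost its call without control 3 (adjusted p = 0.0521 in edgeR's test). Tgfa, also of the antihem, fell 1.74-fold and was called in none of the fits that left out a library. Fgf8, the signal of the rostral centre, stayed at or below 0.065 CPM in every library.

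For each called member the 3 tested genes nearest to its profile were found as those with the smallest root-mean-square difference of centred log2 CPM over the 6 libraries, among genes with a mean of at least 10 CPM. Genes picked in this way have a fold change like that of the member by construction. For Nr2e1 these were Aif1l (0.0341), Notch2 (0.0458) and Slc22a23 (0.047), all 3 called lower. For Emx1 they were Gpr137 (0.0386), Scand1 (0.0511) and 2310035C23Rik (0.0518). For Lhx2 they were B3gat3 (0.0309), Map6 (0.0375) and Trp53inp2 (0.0406). None of the 6 genes near Emx1 and Lhx2 passed the test.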

How the data were processed

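Per the labels' protocols, cDNA of sorted cells was primed with poly-dT, template-switched, amplified for 12 and then 15 cycles and read from one end. Counts are of amplified fragments without molecular identifiers. The submitters' processing notes list TopHat2 2.0.13, Bowtie and bcl2fastq, and the build GRCm38. How reads were assigned to genes, whether by strand and with which annotation, is not given in the sources used here. Deposited by the authors were whole-number counts per Ensembl gene and a TPM table of the same genes, in which 333 genes have no value.

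Genes passing filterByExpr were scaled by TMM and tested, two-sided, with the quasi-likelihood F test of edgeR 4.0.16 in R 4.3.3, with robust dispersions and group as the only term. A call is a Benjamini-Hochberg adjusted p under 0.05 over all tested genes. Standard errors and 95% intervals come from the F statistic, and values after ± are SDs. Exonic lengths and positions are from GENCODE M21, which holds 21492 of the 22001 identifiers. The deposited TPM was used for limma 3.58.1 on log2(TPM + 1) and log2(TPM + 0.1), whose fold changes understate those of low genes, and for the authors' levels. Other alternatives were DESeq2 1.42.0, RLE and upper-quartile scaling, testing without a filter, requiring 5 CPM in at least 3 libraries, a fit that is not robust, the replicate number as a block and each library left out. In simulated counts the fit recovered 64.2% of 1.5-fold, 86.6% of 2-fold and 93.9% of 4-fold changes, and it called 18 unchanged genes. Apart from library size, all libraries of a group were drawn from the same means, so the pattern of control 2 was absent. Changes as small as those of Emx1 and Lhx2 were not simulated.

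The members and gene lists were chosen with earlier results of these data known. Named were the 9 members, Insm1, up to 4 called genes of each list by smallest p or, with none called, the 2 most abundant, and the 3 genes most like each called member. Other genes, such as Zfpm2, Lhx9, Wnt5a, Prox1, Trp73, Ldb1, Atn1, Rere, Cdh8, Stmn2, Alas2, Dmrta1, Nr2f6, Gad1, Gad2, Fgf8 and Ttr, are list members named after their values were seen, and some genes the rule takes are not reported here. Control 2 was left out of the list counts as an alternative chosen after seeing the data.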

Additional observations from a re-analysis of the deposited data

How the results depend on the processing

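Nr2e1 was called lower under all 15 alternatives run. Of the 454 genes called, edgeR's count went to 101 to 631 with single libraries left out, DESeq2 called 1022 and limma called 100 on log2(TPM + 1) and 96 on log2(TPM + 0.1). Of the 9 members 3 were called, 1 to 2 with single libraries left out and 1 in each limma fit, and the cause was not tested. Emx1 was called in 6 and Lhx2 in 4 of the 9 alternatives that kept all libraries. Dmrta2 changed sign without Insm1 library 1 (-0.11), without control 3 (-0.071; -0.11 to 0.14 over all fits without a single library) and in limma on log2(TPM + 1) and log2(TPM + 0.1) (-0.024 in each), and none of these values passed a test. Deviations of same-numbered libraries of the 2 groups had correlations of 0.0744, 0.0349 and -0.055. Differently numbered libraries gave -0.0969 to 0.0647. These small values cannot tell whether same-numbered libraries shared a litter or a preparation, which the labels do not give. With the replicate block 331 genes and 2 members, Lhx2 and Nr2e1, were called, and Emx1 had an adjusted p of 0.0626 in edgeR's test. Scaling moved the median log2 fold change of all tested genes by less than 0.1. With 3 libraries a group, intervals of the uncalled members reach from 0.654 to 1.32 of the control level, leaving aside Nr2f2, whose interval runs from 0.21 to 0.705.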

Other observations

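Relatives of the 9 factors lay below or near their control level without a call, or were too scarce to test. The tested ones had a median log2 fold change of -0.37, with values from -1.99 for Sp5 to 0.062 for Sp1. Sp5 was scarce, at 0 to 1.70 CPM. Of 13 fixed relatives 7 could be tested and none passed edgeR's test (2 at an unadjusted p below 0.05, 1 called by DESeq2 and 0 by limma on log2(TPM + 1)), and without control 2 Lhx9 alone passed. The nearest to a call was Dmrta1, the closest relative of Dmrta2, with 19.5, 11.7 and 17.4 CPM in Insm1 libraries 1, 2 and 3, against 25.9, 26.2 and 31.0 CPM in controls 1, 2 and 3 (log2 fold change -0.78, adjusted p = 0.0515 in edgeR's test). Its groups did not overlap, whereas those of Dmrta2 did. Nr2f6, a further relative of Nr2f1, was at 13.2 ± 1.91 CPM with Insm1 and 16.96 ± 1.78 CPM in controls (SD, n = 3 each; adjusted p = 0.272 in edgeR's test). Sp3 and Sp1, the broadly expressed relatives of Sp8, were at 210 ± 13.6 and 93.6 ± 10.3 CPM with Insm1 and at 209 ± 11.6 and 89.7 ± 0.527 CPM in controls (SD, n = 3 each).

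Genes of the ventral telencephalon, which the dorsal factors keep silent in the cortex, stayed scarce. Gsx2 and Lhx8, which specify ventral progenitors and their neurons, had 0 counts in every library. The list summed to 36.2, 34.7 and 24.1 CPM in Insm1 libraries 1, 2 and 3, against 49.8, 42.3 and 59.6 CPM in controls 1, 2 and 3. Of 15 tested none rose and 14 did not pass.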
